A study of Mus musculus with 54 samples.

Results

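The measurements described here follow mouse T helper 17 (Th17) cells treated with Arg C through their divisions, from cycle 2 to cycle 4, within the drug. The members were chosen by label alone: every library labelled Arg C, which is 18 of the 54 libraries and 6 of the 18 samples of the series. CD4+ CD25- T cells of C57BL/6 mice, from spleen and lymph nodes and about 90% pure, were stained with the division dye CellTrace Violet. They were then cultured for 96 h under Th17-inducing conditions (anti-CD3e and anti-CD28, blocking antibodies to interferon gamma and interleukin 4, and the cytokines TGF-β1, interleukin 6 and interleukin 1β). All groups share this culture, and the labels give no engineered allele and no age of the animals. The Arg C group received 60 mM (unit as labelled), the linezolid group 100 µM and the remaining group the vehicle DMSO. Live CD4+ cells were sorted by dye peak into cycle 2 (1 division), cycle 3 (2 divisions) and cycle 4 (3 divisions or more), in each of 2 experiments. Each sample was sequenced as 3 libraries that the labels call technical replicates, and these were averaged. Undivided cells were not analysed here.

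Th17 cells are helper T cells that make interleukin 17. Arg C (argyrin C) and linezolid are known inhibitors of protein synthesis in mitochondria. A T cell that is activated leaves the resting state, builds ribosomes and mitochondria and divides. With each division the stain is shared between the daughters, so the dye peak counts divisions. Genes of mitosis are transcribed mainly late in the cell cycle, so their level in a bulk sample depends on the share of cells in those phases. In these bulk samples, fewer cells of a kind and less RNA per cell cannot be told apart.

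The Arg C samples held 24.3 to 34.4 M library reads. Levels are RPKM: the reads of a gene scaled by its length and by the total reads of the library. Differences are on the log2(RPKM + 1) scale with the standard error (SE) of limma's fit with the experiment as a block, and a gene is called at a Benjamini-Hochberg adjusted p under 0.05. There were 9779 genes tested. The first principal component of the 6 samples held 62.5% of the variance and ordered the cycles within each experiment. The second held 26.1%, parted the experiments and also ordered the cycles within each. The first was lower in experiment 2 than in experiment 1 at every cycle, so neither component stands for cycle or experiment alone. Between 27.8 and 31.7% of gene reads came from cytosolic ribosomal-protein genes. The cells had abundant Cd4 (229 to 266 RPKM) and Cd3d (192 to 287 RPKM). Among the defining Th17 genes, Il17a and Il17f were detected in every sample, but Il23r and Ccr6 were at or near 0 (at most 0.0512 and 0.0668 RPKM). Of other cell types, Ms4a1 (B cells), Itgax (dendritic cells), Csf1r (macrophages) and Ncr1 (NK cells) were at 0 in all 6 samples. Other markers of these cells were present, with means by cycle of 11.63 to 15.08 RPKM for Cd68 (macrophages) and 2.23 to 6.55 RPKM for Klrd1 (NK cells), and samples at 4.21 to 6.66 RPKM for Cd8b1 (CD8 T cells), 0.185 to 0.627 RPKM for Cd79b (B cells) and 0.0359 to 0.942 RPKM for Itgam (myeloid cells).

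Most of the genes tested moved between cycle 2 and cycle 4 with Arg C. Metallothioneins, ribosome-building genes and nuclear genes for mitochondrial proteins rose. Mitosis genes, genes of the resting T cell and MHC class I genes fell. In numbers, 2792 genes were higher at cycle 4 (28.6% of those tested) and 2676 were lower (27.4%), with 6009 at an unadjusted p under 0.05. All 5468 called genes had the same sign in both experiments, and 69 rises and 183 falls reached 2-fold. The values of cycle 2 and cycle 4 did not overlap for 4485 of the called genes, and for 56.2% of all genes tested. With 2 experiments, and with the 3 cycles being sorted fractions of the same treated cells, only 2 units are independent and p-values can be too small. Without the experiment block the calls fell to 671 higher and 255 lower.

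**Figure D1:**
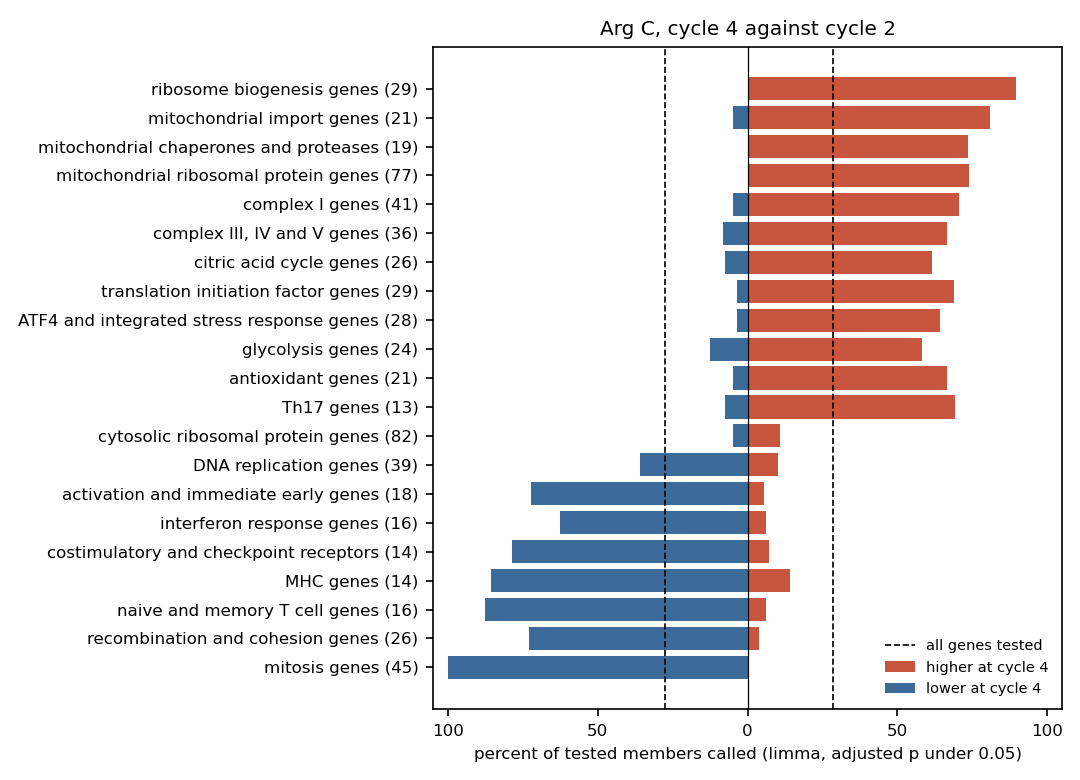
Share of tested members of 21 gene lists called higher (right) or lower (left) at cycle 4 than at cycle 2 with Arg C, with the number tested in brackets. Dashed lines mark the shares over all genes tested, 28.6% higher and 27.4% lower. All 45 mitosis genes were lower and 26 of 29 ribosome biogenesis genes were higher. The lists were chosen with earlier results of these data known.

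Every gene of the mitosis list fell, a list chosen with earlier results of these data known. This list of 45 genes holds the cyclins and kinases that start mitosis, the parts of the kinetochore and spindle, and the machinery that separates the daughters. All 45 were called lower at cycle 4, against 27.4% of all genes, with a median of -1.18 (2.27-fold in RPKM + 1) and a range from -1.71 to -0.62. Cycle 2 and cycle 4 did not overlap for any of the 45, nor for 56.2% of all genes tested. The fall was larger in experiment 1 (median -1.60) than in experiment 2 (median -0.77) for all 45 genes. The summed level of the list was 2800, 2150 and 951 RPKM at cycles 2, 3 and 4 of experiment 1, and 2840, 2580 and 1640 RPKM in experiment 2. Both experiments thus began at a like sum and ended apart. Without the experiment block 12 of the 45 were called.

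The upstream sequences of 5 of the genes that fell are shown because these genes moved together. They are Cdc20, Ect2, Troap and Kif2c, 4 of the 5 cell-division genes named below for their difference from DMSO, and Mki67, the common proliferation marker. The other one, Cep55, has 2 starts and is not printed. The 150 bases before its first start hold neither of the motifs marked here, and those before its second hold 1 TTTGAA and no CCAAT. Ect2 also has 2 starts, of which the first is printed. The 150 bases before the second start of Ect2 hold 1 TTTGAA and 3 CCAAT. Each run is the 150 bases before the RefSeq start on the gene's strand (GRCm38.p6), 5′ to 3′. Capitals mark TTTGAA and CCAAT on either strand (TTCAAA and ATTGG on the other), and no base lies in both. TTTGAA is the letters of the cell cycle genes homology region and CCAAT those of the NF-Y box, both known from promoters of mitotic genes.
Cdc20, chr4:118437344-118437493, minus strand: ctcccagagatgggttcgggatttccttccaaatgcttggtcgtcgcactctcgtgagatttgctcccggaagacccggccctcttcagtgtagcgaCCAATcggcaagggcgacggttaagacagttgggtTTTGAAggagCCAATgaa
Ect2, chr3:27153879-27154028, minus strand: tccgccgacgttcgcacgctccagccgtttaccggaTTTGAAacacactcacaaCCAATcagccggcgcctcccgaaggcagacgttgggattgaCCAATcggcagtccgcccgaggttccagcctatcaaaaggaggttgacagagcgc
Troap, chr15:99074823-99074972, plus strand: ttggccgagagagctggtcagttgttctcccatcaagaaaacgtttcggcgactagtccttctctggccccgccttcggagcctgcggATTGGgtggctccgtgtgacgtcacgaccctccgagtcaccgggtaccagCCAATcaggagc
Kif2c, chr4:117178773-117178922, minus strand: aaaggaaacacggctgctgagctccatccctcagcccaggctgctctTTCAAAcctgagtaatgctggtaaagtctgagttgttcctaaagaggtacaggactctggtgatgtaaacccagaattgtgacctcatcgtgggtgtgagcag
Mki67, chr7:135716380-135716529, minus strand: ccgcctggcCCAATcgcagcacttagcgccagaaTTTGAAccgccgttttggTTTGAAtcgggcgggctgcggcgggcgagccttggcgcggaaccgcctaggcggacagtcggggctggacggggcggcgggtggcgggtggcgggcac

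Cdc20, Ect2 and Mki67 hold both motifs in these bases, Troap only CCAAT and Kif2c only TTTGAA. A window of 250 bases before the start was matched by symbol for 38 of the 45 mitosis genes and for 27025 genes in all. TTTGAA was in the window of 14 of the 38 (36.8%) and of 18.3% of all genes. CCAAT was in 30 of the 38 (78.9%) and in 37.5% of all genes. Both were present in 13 of the 38 (34.2%) and in 6.45% of all genes. Among 31 DNA replication genes, CCAAT was in 67.7% and TTTGAA in 16.1%. Among 13 naive and memory T cell genes, CCAAT was in 38.5% and TTTGAA in 30.8%. For 25 ribosome biogenesis genes the shares were 32% and 16%. A raised share of TTTGAA was thus not confined to the mitosis list. A match is a string of letters, and binding was not measured.

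Cdc20, the activator of the anaphase-promoting complex, was at 114, 71.4 and 25.6 RPKM at cycles 2, 3 and 4 of experiment 1 and at 116, 95.0 and 48.8 RPKM in experiment 2. Both cycle 2 values were above both cycle 4 values, and each step was downward in both experiments (difference -1.67 ± 0.18 SE, adjusted p = 0.000724). Cdc25b, the phosphatase that activates CDK1, fell from 30.2 and 36.3 RPKM at cycle 2 to 6.82 and 13.0 RPKM at cycle 4 (-1.71 ± 0.13). Ect2, which directs the cleavage furrow, went from 14.6 to 2.89 RPKM in experiment 1 and from 21.4 to 8.60 RPKM in experiment 2. The furthest drop among all cell-division genes named here was that of Troap, a spindle-associated protein, from 16.8 and 17.7 RPKM to 2.43 and 4.97 RPKM (-2.01 ± 0.16). Cenpa, the histone variant of the centromere, was at 168 and 172 RPKM at cycle 2, at 99.2 and 116 RPKM at cycle 3 and at 48.6 and 71.0 RPKM at cycle 4. Mki67 was at 44.6 and 37.8 RPKM at cycles 2 and 3 of experiment 1 and 43.4 and 44.5 RPKM in experiment 2, and then 13.1 and 27.4 RPKM at cycle 4. Top2a, the topoisomerase that untangles replicated chromosomes, was likewise at 317 and 287 RPKM, then 141 RPKM in experiment 1, and at 295, 325 and 232 RPKM in experiment 2.

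Genes of DNA replication moved much less than those of mitosis. Of 39 tested, 14 were lower, 4 were higher and 21 were not called, with a median of -0.21. Over all genes 27.4% were lower and 28.6% higher. The median was -0.33 in experiment 1 and -0.05 in experiment 2, and 26 of the 39 had the same sign in both. Rrm2, the subunit of ribonucleotide reductase that varies with the cycle, was lower (-1.33 ± 0.12), whereas the clamp loader subunit Rfc2 was higher (0.45 ± 0.06). Of the helicase genes, Mcm4 (-0.62), Mcm5 (-0.57) and Mcm7 (-0.56) were called lower, and Mcm2 (-0.11), Mcm3 (-0.25) and Mcm6 (0.03) were not called. Recombination and cohesion genes stood in between, with 19 of 26 lower and 1 higher (median -0.59). Rad21, a cohesin subunit, went from 109 and 135 RPKM to 41.6 and 72.8 RPKM. Replication-dependent histone genes were lower for 12 of 32 tested and higher for none, against 27.4% and 28.6% of all genes. They are near-identical copies, so the split of reads among them is uncertain. Cdkn2c, an inhibitor of CDK4 and CDK6, was lower (-1.13 ± 0.07), and Cdkn1a, the p53-induced inhibitor, was not called (-0.24 ± 0.15).

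**Figure D2:**
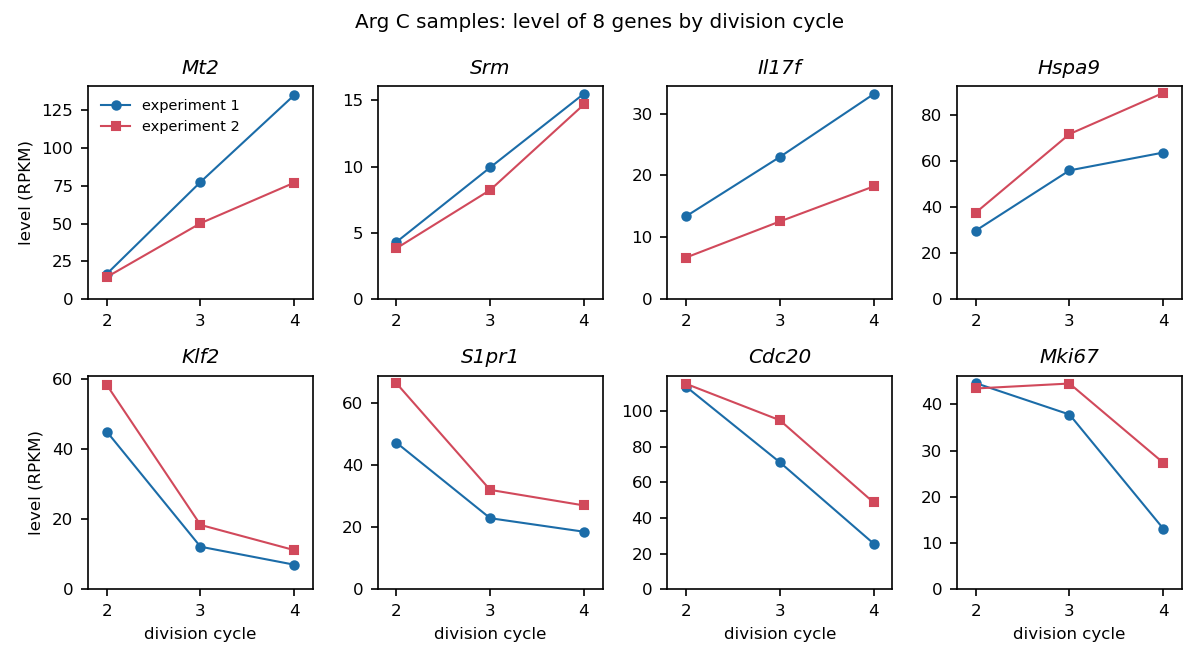
Level (RPKM, linear axis from 0) of 8 genes in the 6 Arg C samples by division cycle, with 1 line per experiment. Mt2, Srm, Il17f and Hspa9 rose at each step in both experiments, Klf2, S1pr1 and Cdc20 fell at each step, and Mki67 was 44.6 and 43.4 at cycle 2 and 13.1 and 27.4 at cycle 4.

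The largest rises were those of the metallothioneins, small proteins that bind zinc and copper. Mt2 was at 16.7, 77.5 and 135 RPKM at cycles 2, 3 and 4 of experiment 1 and at 14.7, 50.3 and 77.1 RPKM in experiment 2 (2.63 ± 0.13, adjusted p = 0.000135). Mt1 was at 21.6, 79.0 and 119 RPKM and at 16.5, 52.8 and 78.5 RPKM (2.30 ± 0.07). Both genes rose at each step in both experiments, and no cycle 2 value reached a cycle 3 value. Srm, spermidine synthase of the polyamine pathway, rose from 4.32 and 3.84 RPKM to 15.5 and 14.7 RPKM (1.67 ± 0.07). Nme1, a nucleoside diphosphate kinase, rose from 17.96 and 17.11 RPKM to 52.0 and 51.1 RPKM (1.50 ± 0.05), with nearly the same values in the 2 experiments. Vim, the intermediate filament vimentin, went from 866 and 688 RPKM to 2042 and 1836 RPKM. Timp1, an inhibitor of metalloproteinases, went from 121 and 83.8 RPKM to 350 and 251 RPKM. Il24 (1.84 ± 0.11), Procr (1.61 ± 0.08), Cldnd1 (1.51 ± 0.12), Crmp1 (1.49 ± 0.06), Noc2l (1.46 ± 0.06), Uchl3 (1.36 ± 0.05), Cyp1a1 (1.33 ± 0.11) and Tmem176a (1.31 ± 0.19) complete the largest rises with Timm50, described below.

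Ribosome-building genes rose together while ribosomal proteins stayed close to their level. Of 29 tested ribosome biogenesis genes, 26 were higher and none was lower, with a median of 0.48. Over all genes 28.6% were higher and 27.4% lower, with a median of 0.004. Wdr75, a factor of the small-subunit processome, was at 1.90, 3.94 and 5.42 RPKM in experiment 1 and at 2.29, 3.90 and 5.65 RPKM in experiment 2. Gnl3 (nucleostemin, 0.92), Wdr43 (0.74) and Nop58 of the box C/D particle (0.69) were also higher. The 3 that were not called were Nhp2, Polr1a and Ubtf. Translation initiation factors were higher for 20 of 29 and lower for 1, led by Eif2s1 (0.95 ± 0.06) and the helicase Eif4a1 (0.94 ± 0.05). Of 82 cytosolic ribosomal-protein genes, 9 were higher and 4 lower (median -0.03), a share below that of all genes. With median-ratio rescaling, 5 were higher and 3 lower.

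Nuclear genes for mitochondrial proteins rose across functions. Of the 77 genes for mitochondrial ribosomal proteins, 57 were higher and none was lower (median 0.35), against 28.6% higher over all genes. Mrpl38, of the large subunit, went from 6.70 and 5.42 RPKM to 15.4 and 12.6 RPKM (1.09 ± 0.07). Import genes were higher for 17 of 21, and the only member lower was Timm17b (-0.45). Timm50, the receptor of the inner-membrane translocase, had the largest rise of the list, at 3.82, 7.98 and 11.1 RPKM in experiment 1 and 3.74, 9.70 and 11.6 RPKM in experiment 2 (1.37 ± 0.08). Tomm40, the pore of the outer membrane, rose from 2.33 and 2.13 RPKM to 5.90 and 6.21 RPKM. Mitochondrial chaperones and proteases were higher for 14 of 19. Hspa9 (mortalin) was at 29.7, 55.8 and 63.5 RPKM and at 37.5, 71.5 and 89.4 RPKM, and Hspd1 (HSP60) rose from 60.4 and 58.8 RPKM to 118 and 113 RPKM. Complex I genes were higher for 29 of 41, including Ndufab1 (0.91 ± 0.05) and Ndufa12 (0.90 ± 0.05). Genes of complexes III, IV and V were higher for 24 of 36, including Atp5g1, a ring subunit of ATP synthase, which rose from 17.2 and 19.2 RPKM to 46.4 and 44.6 RPKM. Mitochondrial translation factors were higher for 13 of 20, with Gfm1, the elongation factor G1, at 0.59 ± 0.06 and the elongation factor Tufm at 0.54 ± 0.05. Many of these differences are small. The cycle 2 and cycle 4 samples did not overlap for 59 of 77 ribosomal-protein, 19 of 21 import and 16 of 19 chaperone and protease genes. For complex I, complexes III, IV and V and translation factors the counts were 28 of 41, 29 of 36 and 15 of 20. Over all genes tested this share was 56.2%.

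Metabolic and stress genes were mixed. Citric acid cycle genes were higher for 16 of 26, with Idh3a (0.88 ± 0.08) and Suclg2 (0.80 ± 0.07) higher and Pdhb, of pyruvate dehydrogenase, lower (-0.83 ± 0.06). Glycolysis genes were higher for 14 of 24 and lower for 3. Aldoa, aldolase, went from 366 and 292 RPKM to 601 and 475 RPKM, whereas the glucose transporter Slc2a3 fell from 9.77 and 16.1 RPKM to 4.86 and 7.71 RPKM. Genes of the ATF4 pathway, the integrated stress response, were higher for 18 of 28 and lower for 1. Asns, asparagine synthetase, was at 17.6, 36.2 and 42.6 RPKM and at 15.7, 34.1 and 41.5 RPKM, so most of its rise lay before cycle 3. Atf4 itself was slightly higher (0.21 ± 0.04), and its partner Ddit3 (CHOP) was not called (0.07 ± 0.05). Antioxidant genes were higher for 14 of 21, including Prdx1 (0.70 ± 0.05) and Sod1 (0.55 ± 0.04). Of 18 HIF-1 targets and regulators, 5 were higher and 7 lower, against 28.6% and 27.4% of all genes. Hif1a itself fell from 61.4 and 85.8 RPKM to 45.5 and 59.9 RPKM. Bnip3 was higher (0.46 ± 0.08) but low, from 1.11 and 1.50 RPKM at cycle 2 to 2.00 and 2.33 RPKM at cycle 4. Its DMSO means were 129 RPKM at cycle 2 and 138 RPKM at cycle 4. Hspa1b, whose reads can be shared with Hspa1a, was not called and differed between the experiments, at 171 to 211 RPKM in experiment 1 and 46.4 to 82.0 RPKM in experiment 2.

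Genes of the resting T cell fell. Of 16 naive and memory genes tested, 14 were lower (all genes: 27.4%), Il7r was higher (0.98 ± 0.15) and Satb1 was not called. Klf2, a transcription factor of quiescence, was at 44.9, 12.1 and 6.95 RPKM at cycles 2, 3 and 4 of experiment 1 and at 58.2, 18.3 and 11.1 RPKM in experiment 2 (-2.41 ± 0.07, adjusted p = 7.43e-05). Its target S1pr1 (the receptor for exit from lymph nodes) followed it, from 47.2 and 66.3 RPKM to 18.5 and 26.95 RPKM. The values of cycle 2 lay above those of cycle 3 in both experiments for both genes. The chemokine receptor Ccr7 fell in both experiments (-0.95 ± 0.05), but its level in experiment 2 was higher throughout, so its cycle 2 and cycle 4 values overlapped between experiments. Ms4a4b, a membrane protein of T cells, had the largest fall named here, from 13.6 and 33.8 RPKM to 1.50 and 4.31 RPKM (-2.63 ± 0.10). Cd7 (-2.38 ± 0.11) and Gfi1 (-1.80 ± 0.09) were also among the 15 largest falls.

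MHC genes were lower for 12 of 14, against 27.4% of all genes. H2-Q7, a class Ib gene, was at 80.3, 40.2 and 17.0 RPKM and at 92.3, 50.9 and 24.6 RPKM (-2.02 ± 0.08). Its near-identical neighbour H2-Q6 fell by 2.58 ± 0.21, and reads may be shared between the pair. The classical class I gene H2-K1 went from 340 and 416 RPKM to 171 and 222 RPKM, and B2m, the shared light chain, was lower as well (-0.59). The 2 members that were higher, H2-Ab1 (0.31) and Cd74 (0.48), belong to class II and are also markers of antigen-presenting cells. Among those markers, the class II gene H2-Eb1 (-0.41 ± 0.11) and Itgam (-0.74 ± 0.10) were lower and Cd68 was higher (0.29 ± 0.07). The summed level of the dendritic and myeloid markers ranged from 35.4 to 49.1 RPKM in the Arg C samples, and its part in these 2 genes was not tested. Costimulatory and checkpoint receptors were lower for 11 of 14, led by Lag3, an inhibitory receptor, which fell from 107 and 94.6 RPKM to 38.8 and 34.0 RPKM. Cd27 (-1.19 ± 0.08) and Btla (-0.68 ± 0.07) were lower too. Activation and immediate early genes were lower for 13 of 18, including Junb (-0.51 ± 0.06) and Dusp2 (-0.67 ± 0.09), whereas the cytokine Tnf was higher (0.74 ± 0.07). Interferon response genes were lower for 10 of 16, including Ifi27l2a (-0.97 ± 0.05).

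Most of the Th17 genes tested rose. Of 13 tested, 9 were higher (all genes: 28.6%), Il10 was lower (-0.64), and Rora, Irf4 and Maf were not called. With median-ratio rescaling 7 were higher. Il17a was at 2.78, 4.03 and 5.45 RPKM in experiment 1 and at 1.72, 2.32 and 3.81 RPKM in experiment 2 (0.79 ± 0.07, adjusted p = 0.00049). Il17f was at 13.4, 22.99 and 33.1 RPKM and at 6.74, 12.6 and 18.2 RPKM (1.28 ± 0.06). At cycle 4 of the DMSO samples, Il17a was at 64.5 and 36.4 RPKM and Il17f at 304 and 171 RPKM. Il9 was higher (1.62 ± 0.12) and so was Il2ra, the alpha chain of the interleukin 2 receptor (0.76 ± 0.07). Foxp3, which marks regulatory T cells, was at 0.389 to 0.778 RPKM and was not called (-0.20 ± 0.09). Ifng did not reach the filter, with a highest value of 0.0335 RPKM. Myc was lower (-0.39 ± 0.08). The 2 tested markers of NK and CD8 T cells went opposite ways, Klrd1 higher (1.22 ± 0.07) and Cd8b1 lower (-0.52 ± 0.07). Their list summed to 9.46 to 11.4 RPKM, and its part in the results was not tested.

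The comparison of each step on its own showed that most of the calls lay in the first. Between cycle 2 and cycle 3, 1916 genes were higher (19.6%) and 1659 lower (17%). Between cycle 3 and cycle 4, 167 were higher (1.71%) and 260 lower (2.66%). The 2 steps share the cycle 3 samples. For genes called higher from cycle 2 to cycle 4, the first step held a median of 66.5% of the difference, and for genes called lower 65.2%. These step counts were unstable. Without cycle 3 of experiment 1 the first step had 2 calls and the second none, and without cycle 3 of experiment 2 they had 3 and 1. The second step had 1374 calls without cycle 2 of experiment 1, 1375 without cycle 2 of experiment 2, 222 without cycle 4 of experiment 1, 861 without cycle 4 of experiment 2 and 121 without the technical replicates numbered 2.

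The counts of each list are read against the shares of all genes, 19.6% higher and 17% lower in the first step and 1.71% and 2.66% in the second. Mitosis genes had 8 of 45 lower in the first step (median -0.29), near the share of all genes, and 31 of 45 lower in the second (median -0.87), and 44 of the 45 fell further in the second. Recombination and cohesion genes had 3 and 8 of 26 lower. Naive and memory genes had 12 of 16 lower in the first step and 6 in the second. Ribosome biogenesis genes had 22 of 29 higher in the first and 1 in the second, and mitochondrial ribosomal proteins 40 and 3 of 77, so the second-step counts of both are near the share of all genes. ATF4 pathway genes had 19 of 28 higher in the first and 1 in the second. A test of the second step against the first, added after seeing the data, called none of the 45 mitosis genes, so their later fall is a description.

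**Figure D3:**
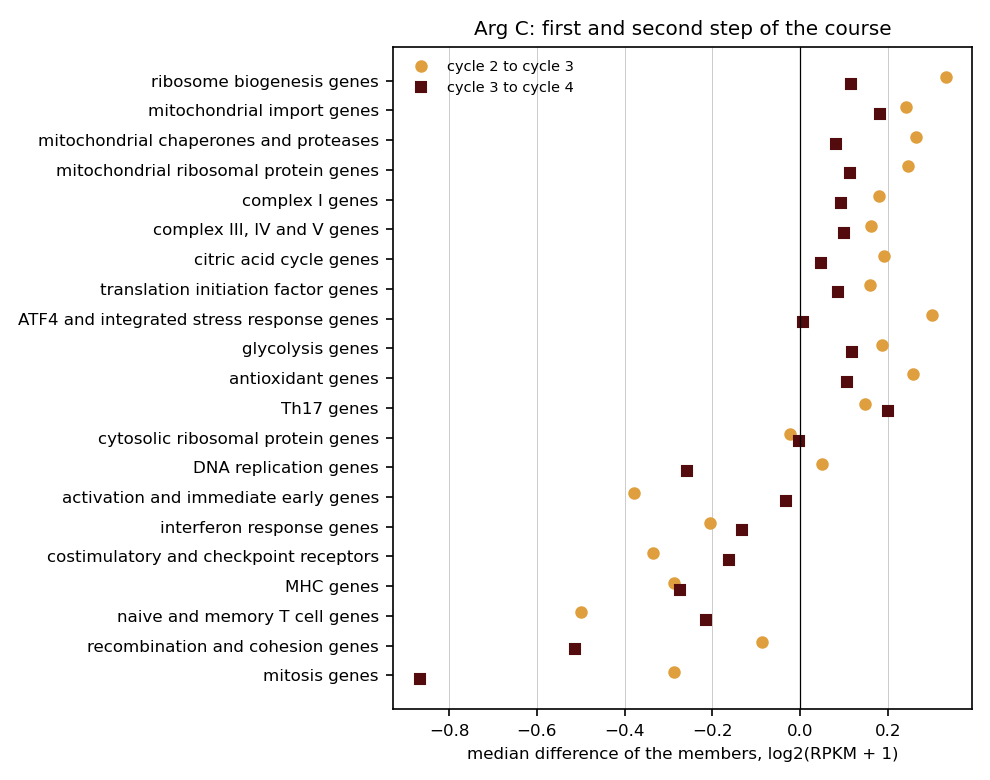
Median difference over the tested members of 21 gene lists in the Arg C samples, on the log2(RPKM + 1) scale, for cycle 2 to cycle 3 (circles) and cycle 3 to cycle 4 (squares). Mitosis genes stood at -0.29 and -0.87, naive and memory genes at -0.50 and -0.21.

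That test called 0 genes higher (0%) and 6 lower (0.0614%), with 1666 at an unadjusted p under 0.05. The 6, named after their values were seen, were Lars2, Gm15564, LOC108167755, Erdr1_1, Rnu3b1 and Rnu3b2, and all were highest at cycle 3. Lars2 was at 12.3, 67.2 and 31.6 RPKM in experiment 1 and at 7.84, 50.4 and 19.6 RPKM in experiment 2. It shares sequence with ribosomal RNA, so its reads may not all be its own. Rnu3b1 and Rnu3b2 are copies of the U3 small nucleolar RNA gene. Leaving out cycle 2, 3 or 4 of experiment 1 gave 100, 0 and 11 calls in this test, and leaving out those of experiment 2 gave 29, 2 and 271.

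The trend over the 3 cycles called 2488 genes higher (25.4%) and 2349 lower (24%). With evenly spaced cycles its slope is the cycle 4 minus cycle 2 difference divided by 2, so it is not separate evidence, and 4825 of its 4837 calls were also calls of cycle 4 against cycle 2. Of the 2792 genes called higher at cycle 4, 2127 rose at each step in both experiments, and of the 2676 called lower 1970 fell at each step. All 45 mitosis genes but 1 were called in the trend. Without cycle 2 of experiment 1 the trend called 1241 higher and 1163 lower.

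The course of mitosis genes had the opposite sign in DMSO. There all 45 had a higher mean at cycle 4 than at cycle 2 (median 0.53), and the difference between the Arg C and the DMSO course was called lower for all 45 (median -1.77). Over the 11004 genes tested, the Arg C course was higher than that of DMSO for 468 (4.25%) and lower for 403 (3.66%). With median-ratio rescaling the split was 451 and 557. The count was 300 in all without cycle 2 of experiment 1, 286 without cycle 4 of experiment 1 and 512 without cycle 2 of experiment 2. Mki67 in DMSO was at 5.91, 7.67 and 11.7 RPKM in experiment 1 and at 8.55, 13.1 and 17.4 RPKM in experiment 2. The Arg C values were above these at all 3 cycles in both experiments, with 13.1 and 27.4 RPKM at cycle 4. Cdc20 in DMSO rose from 17.0 and 30.9 RPKM to 26.7 and 39.5 RPKM, while with Arg C it ended at 25.6 and 48.8 RPKM. The Arg C and DMSO samples thus stood closer together at cycle 4 than at cycle 2 for both genes.

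Among genes averaging at least 5 RPKM over the samples of both groups, clone-like symbols aside, the 5 largest differences upward were those of Mt2 (2.34 ± 0.38), Mt1 (2.17 ± 0.34), Srm (1.27 ± 0.15), Atp5g1 (1.22 ± 0.16) and Nme1 (1.16 ± 0.14). Mt2 in DMSO was already at 146 and 90.3 RPKM at cycle 2 and at 121 and 165 RPKM at cycle 4, so the Arg C samples differed from it most at cycle 2. Srm in DMSO was at 15.2 to 21.4 RPKM in all 6 samples, and the Arg C samples came near this range at cycle 4. Nme1 in DMSO was at 20.0 to 27.8 RPKM, and the Arg C samples were slightly below it at cycle 2 and above it at cycles 3 and 4. Under the same limits the 5 largest downward were Ect2 (-2.26 ± 0.37), Troap (-2.23 ± 0.34), Cdc20 (-2.15 ± 0.35), Kif2c (-2.14 ± 0.31) and Cep55 (-2.12 ± 0.36), all of cell division. Arhgef39, which lies below that level, stood at -2.25 ± 0.29. Klf2 fell in both groups, in DMSO from 78.3 and 90.3 RPKM to 46.4 and 52.9 RPKM. It fell further with Arg C (difference -1.66 ± 0.19). Il17a rose in both groups, and its course was not called different by limma (-0.44 ± 0.28, adjusted p = 0.38). Mitochondrial ribosomal proteins were called higher in the difference for 12 of 77 and ribosome biogenesis genes for 1 of 31, against 4.25% of all genes.

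**Figure D4:**
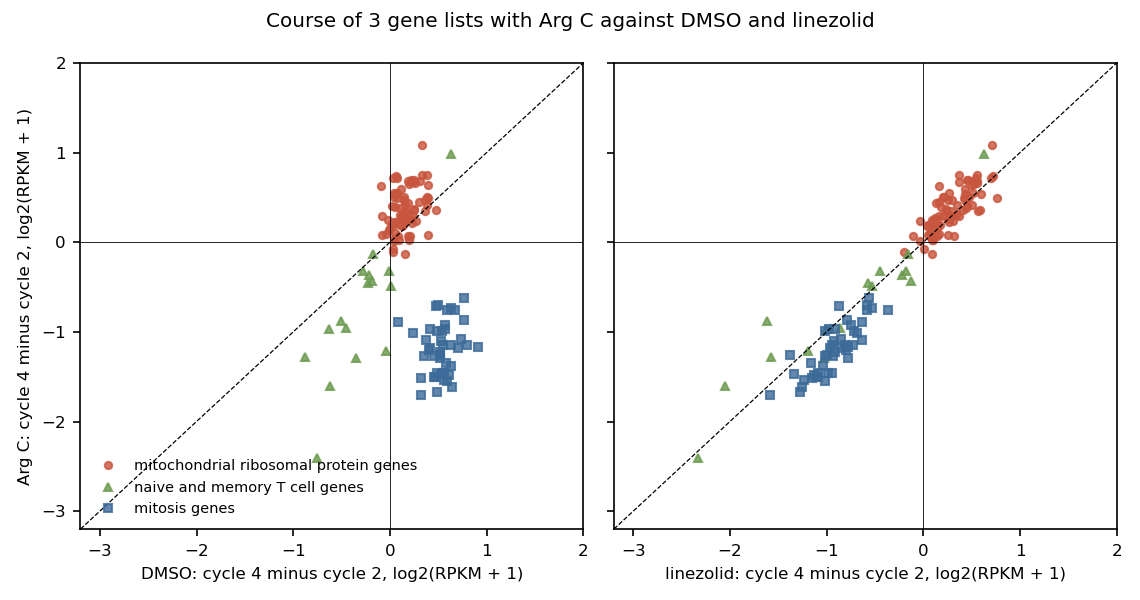
Difference of cycle 4 and cycle 2 for each tested member of 3 gene lists, on the log2(RPKM + 1) scale, with Arg C on the vertical axis and DMSO (left) or linezolid (right) on the horizontal one. The dashed line marks equal differences. The 45 mitosis genes are below 0 with Arg C and linezolid and above 0 with DMSO.

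No gene was called different between the courses of Arg C and linezolid by limma (0% higher and 0% lower of 11004). At an unadjusted p under 0.05 there were 714, and limma-voom on recovered reads also called 0, with 577 unadjusted. With only the 12 samples of both drugs there were 1331 unadjusted and 0 called (smallest adjusted p by limma 0.213). Without cycle 2 or cycle 4 of Arg C in experiment 1 there were 448 and 435 unadjusted, and with no filter 1137 and 1 call. All 45 mitosis genes had a lower mean at cycle 4 than at cycle 2 with linezolid too (median -0.93). Mki67 with linezolid was at 53, 38.7 and 19.2 RPKM in experiment 1 and at 63.2, 64.5 and 57.3 RPKM in experiment 2, so the fall in experiment 2 was small. Mt2 with linezolid rose from 8.38 and 6.93 RPKM to 110 and 53.5 RPKM. The 2 differences share the Arg C samples, the labelled doses of the drugs differ, and a missed threshold does not show that the courses are alike.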

How the data were processed

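RNA levels were measured by sequencing of total RNA. The authors deposited 1 table of 45802 genes by 54 libraries, and the file header states no unit or step of processing. Its values were read as RPKM as deposited by the authors, because single-exon genes gave whole multiples of a fixed step in each library for 92.5% of values (tolerance 0.002 read). Recovered reads gave the depth and a limma-voom alternative. Per the submitters' processing notes, CASAVA and the genome build GRCm38.p5 were used. Aligner, counting tool, annotation and strand: not given in the sources used here.

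Technical libraries of a sample, 3 each, were averaged, as they differed by 1.04 to 1.11 times counting noise (chi-square over its degrees of freedom). The labels do not describe the animals behind each experiment, and p-values measure only the spread between these samples. Values entered as log2(RPKM + 1). Genes reaching 0.5 RPKM in 2 or more samples of a fit were kept and fitted in limma (3.58.1, R 4.3.3) by lmFit, then eBayes with trend. The comparisons within Arg C, that of the second step against the first included, used its 6 samples. Cycle and experiment were the terms (2 residual degrees of freedom, 3 for the trend). The 2 differences between courses used all 18 samples (8). The experiment number marks a shared experiment in the labels, and samples of an experiment deviated together (r from 0.663 to 0.799). The library ids hold a number that differs between the experiments and is read here as the lane, which the labels do not say. It cannot be told apart from experiment.

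Named genes were the 15 largest rises and 15 largest falls that were called, averaged 5 RPKM or more and agreed in sign between experiments, without clone-like symbols. Added to these were up to 3 genes per list by p, the 5 largest each way in each difference between courses under the same level and symbol limits (mean over both groups), and a fixed set. Not every one is printed (some are not reported here), and other members of a list are named to complete its count. The members and the 44 lists were chosen with earlier results of these data known, and the motifs and the test of the second step against the first after seeing the data. B cell markers had no tested member (summed level 0.219 to 0.670 RPKM). The fit was also run on simulated reads with independent noise in each sample and no experiment effect. That run did not test how the calls depend on the experiment block. Alternatives were 2 rescalings, a pseudocount of 0.1, 2 other filters, no trend, voom, no block, single libraries with or without the lane, each technical replicate or Arg C sample left out, and other sets of samples.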

Additional observations from a re-analysis of the deposited data

Results flagged for a closer look

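The course from cycle 2 to cycle 4 was flagged where it differed between Arg C and DMSO by the test of the difference itself. This held for 468 genes with a higher course in Arg C and 403 with a lower one, among them all 45 mitosis genes. Among the genes with a higher course in Arg C, on the log2(RPKM + 1) scale, were Mt2 (2.34), Mt1 (2.17), Srm (1.27), Atp5g1 (1.22), Nme1 (1.16) and Hspa9 (0.82). Among those of cell division with a lower course were Ect2 (-2.26), Troap (-2.23), Cdc20 (-2.15), Kif2c (-2.14), Cep55 (-2.12), Mki67 (-2.08) and Top2a (-1.43). Of the genes of the resting T cell and MHC, Klf2 (-1.66) and H2-Q7 (-1.11) had a lower course.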

How the results depend on the processing

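Of 3553 values of named genes for cycle 4 against cycle 2 under the alternatives, none reversed as a called value, 86 lost and 12 gained their call, and 66 of the losses came without the experiment as replicate block. Of 210 values for the difference from the DMSO course, 6 lost their call, all without the block. Counts that moved by over 1.5 times follow, and the cause was not tested. Without the block, cycle 4 against cycle 2 had 671 higher and 255 lower, the trend 992 and 533, both single steps and the second step against the first 0, and the difference from DMSO 100. With all 18 samples in the fit, 1503 were lower in cycle 4 against cycle 2 and in the trend, and the first and second step had 1311 and 40 calls. Entering libraries singly, which counts technical replicates as samples, gave 3540 lower in the trend, 6067 and 3834 calls in the steps, 4682 against DMSO, 1840 against linezolid and 2809 for the second step against the first. With the lane as replicate block these were 5856 and 3566 in the steps, 4540, 1681 and 2356. Same-numbered libraries of other cycles did not deviate together (median r -0.003), so that number gives no pairing. With no filter, the steps had 1857 and 0 calls, linezolid 1 and the second against the first 3. The second step had 664 calls at a filter of 1 RPKM, 78 without trend and 702 by voom. Experiment 1 alone gave 1582 higher in the trend. Removing ribosomal RNA loci and ribosomal-protein genes, an alternative added after seeing the data, left 1 call for the second step against the first. Leaving out 1 sample or technical replicate gave 1241 to 2406 higher and 1163 to 2281 lower in the trend, 2 to 4172 calls in the first step, 0 to 1375 in the second, 0 to 271 for the second against the first and 286 to 728 against DMSO. For cycle 4 against cycle 2 it gave 2158 to 2636 higher and 2041 to 2500 lower. Depth limits the 7048 genes with a value in Arg C samples that did not reach the filter, which were not tested.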

Other observations

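Genes of other helper T cell programmes fell between cycle 2 and cycle 4 with Arg C. Of 6 Th1 and cytotoxic genes tested, 4 were lower and none was higher, against 27.4% and 28.6% of all genes. Tbx21, the transcription factor of Th1 cells, was at 2.07, 0.954 and 0.446 RPKM in experiment 1 and at 2.74, 1.52 and 0.998 RPKM in experiment 2. Of 5 Th2 genes, 3 were lower and 1 was higher, and Gata3, the transcription factor of Th2 cells, fell from 7.75 and 13.1 RPKM to 2.06 and 4.00 RPKM (-1.50 ± 0.07). Among 22 genes for cytokine receptors and SOCS proteins, 5 were higher and 11 lower, against 28.6% and 27.4% of all genes. The interleukin 6 receptor genes Il6ra (-1.22 ± 0.07) and Il6st (-1.20 ± 0.09) fell, whereas Il12rb1, a chain shared by the receptors for interleukins 12 and 23, rose (1.00 ± 0.07).

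Targets of p53 and genes of apoptosis were lower for 11 of 20 and higher for 2, against 27.4% and 28.6% of all genes. Trp53inp1 was at 26.2, 14.1 and 10.9 RPKM in experiment 1 and 60.2, 36.0 and 32.3 RPKM in experiment 2. Its level was higher in experiment 2 at every cycle. Serine and folate genes were higher for 7 of 11 and lower for none, and 8 were higher in the first step and none in the second. Over all genes 28.6% were higher from cycle 2 to cycle 4, 19.6% in the first step and 1.71% in the second. Mthfd1, of the cytosolic folate cycle, went from 1.88 and 2.30 RPKM at cycle 2 to 4.67 and 4.59 RPKM at cycle 3 and 4.83 and 5.43 RPKM at cycle 4. Of 16 genes of the T cell receptor complex, 4 were higher and 7 lower, against 28.6% and 27.4% of all genes.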
